A study of Penaeus vannamei with 6 samples.

Results

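In the gills of the Pacific whiteleg shrimp Penaeus vannamei, formerly placed in Litopenaeus, 412 of 341828 assembled transcripts were near silent in seawater and on in fresh water. They were chosen by their level in RPKM, a read number divided by transcript length and by the depth of the library. Each had at most 0.5 RPKM in both seawater libraries, at least 5 RPKM in both fresh water libraries, and a mean under 1000 RPKM over the 6 libraries. The levels in brackish water were left free. The libraries came from gill of juvenile animals cultured in fresh water, in brackish water or in seawater, with 2 libraries of each used here, where the study's design speaks of 3. The labels give no strain, no salinity value and no time in culture, and they do not say whether a library holds 1 animal or several.

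The gill is the main organ of ion exchange in penaeid shrimp. In dilute water the animal keeps its haemolymph saltier than its surroundings by taking up salt across the gill epithelium, work that is done by ion pumps such as the Na+/K+-ATPase and by transporters and carbonic anhydrase. In full seawater this demand is lower. Whether any of the 412 transcripts belongs to that machinery cannot be read from the files, since they list assembly IDs and hold no gene names. Of the IDs, 0 matched the RefSeq gene table of the species, so no role is given for any transcript here and no gill marker could be checked. The transcripts are named by the IDs of the assembly, in which transcripts that differ only after "seq" are forms of 1 component and may share reads.

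Depth ran from 23195528 to 30152208 reads in fresh water, from 35347475 to 37027007 in brackish water and from 16500257 to 33130083 in seawater. Many more transcripts of the whole assembly had reads in 3 of the libraries than in the other 3. The numbers were 207274 and 213853 in fresh water libraries 1 and 2, 203824 and 61478 in brackish water libraries 1 and 2, and 55464 and 72650 in seawater libraries 1 and 2. The brackish water libraries thus stood apart from each other, with library 1 near fresh water in breadth and library 2 near seawater. Whether the labels of these libraries match their cultures cannot be told from the files, so levels in brackish water are given per library. The part of this breadth of detection in the levels of the 412 transcripts was not tested.

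On RPKM the 412 transcripts as a group were low but clearly detected in fresh water, close to that level in brackish water library 1, and far lower in brackish water library 2 and in seawater. Their median level was 6.87 RPKM in fresh water library 1 and 10.5 RPKM in library 2. In brackish water it was 7.73 RPKM in library 1 and 0.715 RPKM in library 2. In seawater it was 0.118 RPKM in library 1 and 0.194 RPKM in library 2. The quartiles ran from 5.73 to 9.67 RPKM and from 8.14 to 14.2 RPKM in the fresh water libraries, and from 4.44 to 11.2 RPKM in brackish water library 1, against 0.145 to 1.34 RPKM in brackish water library 2. The levels in fresh water and seawater are those that chose the transcripts and are a description only.

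**Figure D1:**
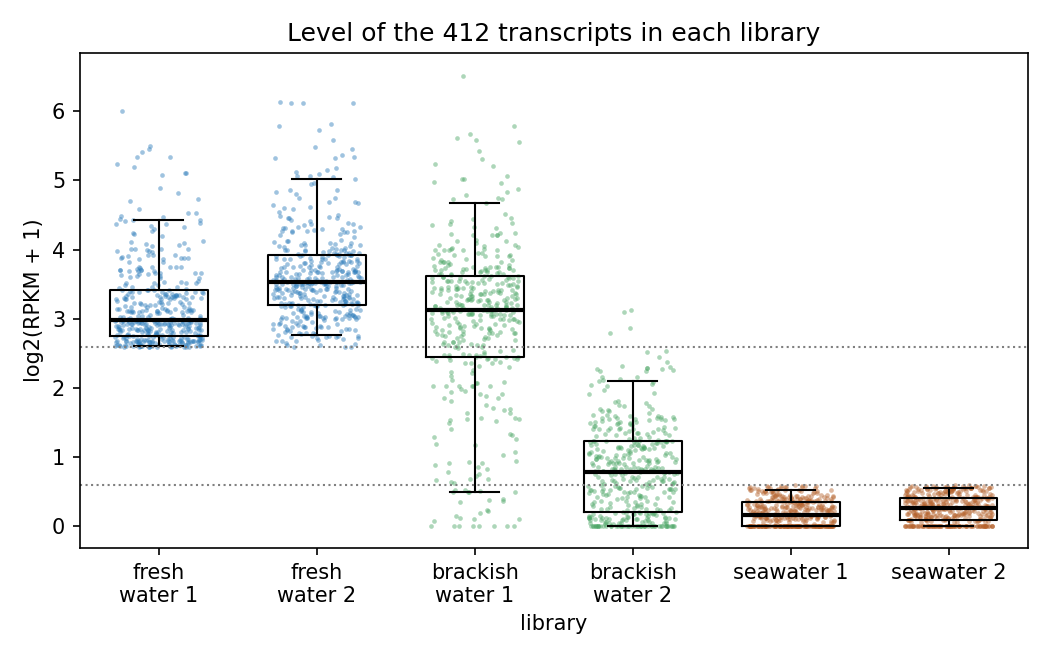
Level of each of the 412 transcripts, as log2(RPKM + 1), in the 2 fresh water, 2 brackish water and 2 seawater libraries. Each point is 1 transcript, boxes span the quartiles with the median as a thick line, whiskers reach the 5th and 95th percentiles, and dotted lines mark the limits of 0.5 and 5 RPKM. Brackish water library 1 lies at the height of the fresh water libraries, with a median of 7.73 RPKM, and library 2 lies between it and seawater, with a median of 0.715 RPKM.

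Together the 412 transcripts took 0.382% and 0.533% of the reads in fresh water libraries 1 and 2, that is 115115 and 123612 reads. In brackish water libraries 1 and 2 they took 0.390% and 0.0384%. In seawater libraries 1 and 2 they took 0.00761% and 0.00968%, that is 1256 and 3206 reads. Pooled over the libraries of a group and scaled to depth, this was 49.8 times more in fresh water than in seawater, 1.15 times more in fresh water than in brackish water library 1, and 4.27 times more in brackish water library 2 than in seawater. In bulk tissue, fewer cells of a type and less RNA per cell cannot be told apart.

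Near silence in seawater did not mean that no read was found. Over both seawater libraries, 61 of the 412 transcripts had 0 reads, 80 had 1 to 3 reads, and 271 had more than 3, up to 90. The median was 1 read in seawater library 1 and 4 reads in library 2, while the lowest count of any of the 412 in a fresh water library was 26 reads. For a transcript of the median length, 0.5 RPKM corresponded to 6.13 reads in seawater library 1 and 12.3 reads in library 2. For the shortest of the 412, it corresponded to 1.68 and 3.38 reads. For the 61 without a seawater read, 3 reads over both seawater libraries would stand at 0.0372 to 0.296 RPKM, depending on length. Against this floor they were at least 25.4-fold to 306-fold higher in fresh water, with a median bound of 54.6. Among the 271 with more than 3 seawater reads, the ratio of fresh water to seawater reads per depth ran from 12.6 to 325, with a median of 38.6. These floors and ratios cover counting error at most, since replicate libraries vary more.

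Most of the 412 lay just above the fresh water limit. In 253 the mean fresh water level was 5 to 10 RPKM, in 124 it was 10 to 20 RPKM, in 27 it was 20 to 40 RPKM and in 8 it was 40 RPKM or more, up to 58.9 RPKM. The limits cut through a continuous range of levels. The higher seawater library of the members reached 0.4997 and 0.4992 RPKM, and the nearest transcript on in fresh water that was left out stood at 0.50004 RPKM there. The lower fresh water library of the members went down to 5.01 RPKM, and the nearest transcript left out stood at 4.99 RPKM. A further 377 transcripts at 5 RPKM or more in fresh water had a higher seawater library above 0.5 and up to 1 RPKM. A further 236 that were near silent in seawater had a lower fresh water library of 4 to under 5 RPKM.

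Few transcripts met the same limits in the opposite direction. With at least 5 RPKM in both seawater libraries and at most 0.5 RPKM in both fresh water libraries there were 6, against 412. On RPKM divided by TMM factors, which adjust for a few transcripts taking up much of a library, the numbers were 27 in that direction against 105 in the direction of the 412, and all 105 were among the 412. The TMM factors were 1.55 and 1.87 in fresh water and 0.655 and 0.874 in seawater. How many transcripts pass the limits thus depends on the scaling. In each of the 412 both fresh water libraries were above both seawater libraries on either scale. The limits of the rule ensure this with TMM factors of this size, so nothing is read from it. On the TMM scale the median level of the 412 was 4.43 and 5.62 in the fresh water libraries, against 0.180 and 0.222 in the seawater libraries. Over the 351 with a seawater read, the median ratio of the mean fresh water level to the mean seawater level was 51.1 on RPKM and 22.3 on the TMM scale. The lowest ratio on the TMM scale was 6.15.

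The fresh water libraries differed among themselves in the level of these transcripts. Library 2 was the higher in 355 of 412, with a median ratio of library 2 to library 1 of 1.44. Library 2 was also the higher in 71.3% of all 25901 transcripts that averaged 1 RPKM or more over the 6 libraries. The ratio was above 2 in 52 of the 412 and under 0.5 in 9, and it ran from 0.303 to 4.16. Across the 412 transcripts, Pearson's r of log2(RPKM + 1) between the fresh water libraries was 0.67, and r was 0.47 between fresh water library 2 and brackish water library 1 and 0.22 between fresh water library 1 and brackish water library 1. These correlations are across transcripts in a narrow range of levels, and transcripts of 1 library share its depth.

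The brackish water libraries split the 412 transcripts. In library 1 the level was at least 5 RPKM in 296, above 0.5 and under 5 RPKM in 89, and at most 0.5 RPKM in 27. In library 2 it was at least 5 RPKM in 4, above 0.5 and under 5 RPKM in 238, and at most 0.5 RPKM in 170. Library 1 was the higher in 397 of 412 and library 2 in 11. This is near the background, since library 1 was the higher in 89.3% of the 25901 transcripts. The size of the gap was larger in the 412, with a median log2 difference of library 1 minus library 2 of 2.17 on log2(RPKM + 1) against 1.33 over the 25901 transcripts, and of 0.89 against 0.18 on the TMM scale. The TMM factors of the brackish water libraries were 1.54 and 0.391, which brings them closer together. The 412 were chosen on fresh water and seawater levels, so the size of their gap is not independent of that choice.

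**Figure D2:**
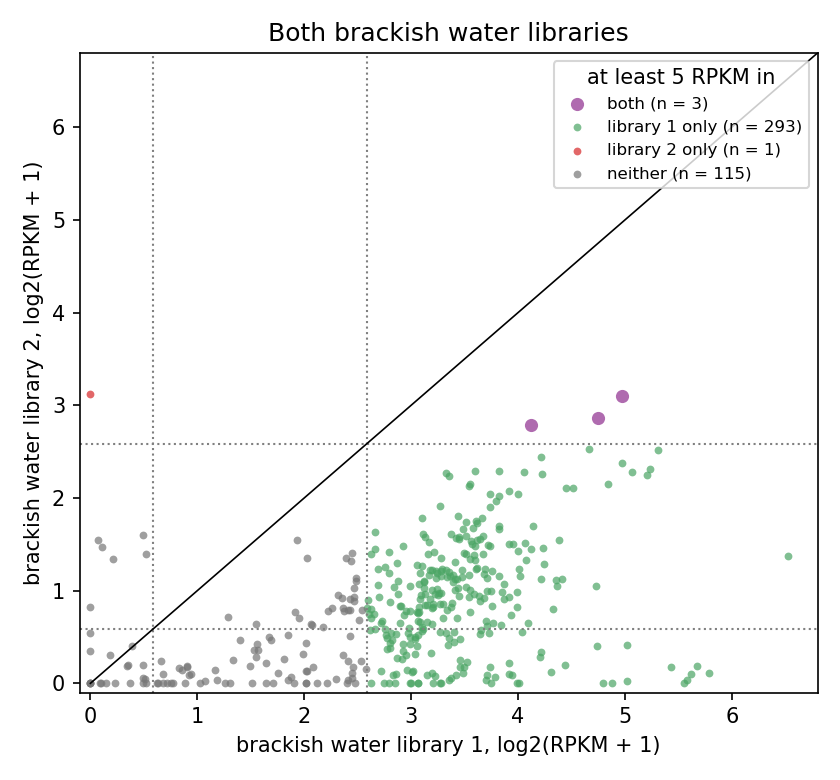
Level of the 412 transcripts in brackish water library 1 (horizontal) and library 2 (vertical), both as log2(RPKM + 1), coloured by the library in which they reached 5 RPKM. Dotted lines mark 0.5 and 5 RPKM and the solid line marks equal levels. The cloud lies below the line of equal levels, with 293 transcripts at 5 RPKM or more in library 1 only, 3 in both, 1 in library 2 only and 115 in neither.

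On the TMM scale the same split gave 164 transcripts at 5 or more in library 1 only, 44 in both, 5 in library 2 only and 199 in neither. Pooled reads per depth were 10.2 times higher in brackish water library 1 than in library 2, and 2.58 times higher after TMM. Within this 1 culture condition, the limits of the rule applied to single libraries found 672 transcripts of the whole assembly at 5 RPKM or more in library 1 and at most 0.5 RPKM in library 2, of which 89 were among the 412. In the other direction they found 381, of which 1 was among the 412. Between the seawater libraries the same limits found 465 high in library 1 and low in library 2, and 50 in the other direction. Between the fresh water libraries these numbers were 50 and 12. The rule keeps such transcripts out of the 412.

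On RPKM, brackish water library 1 was above both fresh water libraries in 78 of 412, between them in 150 and below both in 184. Library 2 was above both seawater libraries in 299 of 412 and below both in 41. On the TMM scale the median level of the 412 was 5.02 in brackish water library 1 and 1.83 in library 2, beside 4.43 and 5.62 in the fresh water libraries and 0.180 and 0.222 in the seawater libraries. By ratio, library 2 was thus nearer to seawater on RPKM and nearer to fresh water on the TMM scale. Both brackish water libraries were above both seawater libraries in 292 of 412, against 14.8% of the 25901 transcripts. Both fresh water libraries were above both brackish water libraries in 184 of 412, against 35.2% of the 25901. The seawater and fresh water levels were fixed low and high by the choice of the transcripts, so neither count is independent of it.

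The 293 transcripts that reached 5 RPKM in brackish water library 1 only were 71.1% of the 412. Their median level was 6.86 and 11.04 RPKM in the fresh water libraries, 9.50 and 0.918 RPKM in brackish water libraries 1 and 2, and 0.131 and 0.216 RPKM in the seawater libraries. The highest in fresh water was comp246623_c0_seq10, a transcript of 2091 bases. It had 63.2 and 54.5 RPKM in fresh water, 46.8 RPKM in brackish water library 1 and 0.0271 RPKM in library 2, and 0.145 and 0.202 RPKM in seawater. Brackish water library 1 was close to fresh water and library 2 was below both seawater libraries, with 2 reads against 3624 in library 1. In fresh water 6630 reads stood against 19 in seawater. Summed, the other forms of its component had 47.7 and 59.0 RPKM in fresh water, and 12.8 and 15.4 RPKM in seawater. The component as a whole was thus not near silent in seawater.

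The next was comp216991_c0_seq1, of 1541 bases. It had 44.3 and 69.1 RPKM in fresh water, 17.5 and 1.17 RPKM in brackish water libraries 1 and 2, and 0.315 and 0.118 RPKM in seawater. Here both brackish water libraries lay between fresh water and seawater without overlap. The ratio of fresh water to seawater reads per depth was 301 for this transcript and 325 for comp246623_c0_seq10, which was the highest of the 271 with more than 3 seawater reads.

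The 115 transcripts that reached 5 RPKM in neither brackish water library were the nearest to a set on in fresh water alone. Their median level was 6.85 and 8.16 RPKM in the fresh water libraries, 2.11 and 0.143 RPKM in brackish water libraries 1 and 2, and 0.0708 and 0.0991 RPKM in the seawater libraries. Highest in fresh water was comp73587_c0_seq1, of 288 bases, with 10.5 and 43.6 RPKM in fresh water, 0 RPKM in both brackish water libraries, and 0 and 0.210 RPKM in seawater. Its reads were 91 and 291 in fresh water and 2 in seawater, both in library 2. The fresh water libraries differed 4.16-fold, the widest gap of this direction among the 412. The ratio of fresh water to seawater reads per depth was 178, with an exact 95% counting interval of 48.9 to 1473.

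The second was comp243914_c0_seq2, of 892 bases, with 20.4 and 27.6 RPKM in fresh water, 1.51 and 0.190 RPKM in brackish water libraries 1 and 2, and 0.204 and 0.169 RPKM in seawater. Brackish water library 2 lay within the seawater range and library 1, with 50 reads, above it. The longest of all 412 was comp248263_c0_seq6, of 6116 bases. It had 7.58 and 10.4 RPKM in fresh water, 1.96 and 0.287 RPKM in brackish water libraries 1 and 2, and 0.297 and 0.296 RPKM in seawater. Brackish water library 1 lay between fresh water and seawater, and library 2 just below both seawater libraries. On the TMM scale library 2 of comp248263_c0_seq6 and of comp243914_c0_seq2 was above both seawater libraries. The length of comp248263_c0_seq6 put 30 and 60 reads behind the seawater values, so its low level there is the best counted of the 412, and its ratio of fresh water to seawater reads per depth was 29.7.

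Of these 115, 20 were at or below 0.5 RPKM in both brackish water libraries too, so that they were on in the fresh water libraries and near silent in the 4 others. This subset was counted on RPKM only. On the TMM scale 105 of the 412 still met the limits for fresh water and seawater. In fresh water the mean level of the 20 ran from 5.40 to 27.0 RPKM, with a median of 7.80 RPKM. They were short, from 204 to 898 bases with a median of 388.5. Of the 20, 3 had no read in any of the 4 other libraries, and 11 had no other form in their component. The state described is that of the single form. Summed, the sister forms of comp242296_c0_seq1 had 165 and 5.21 RPKM in seawater, while those of comp238045_c0_seq3 had 0 RPKM in both seawater libraries. The same limits without regard to seawater, at least 5 RPKM in both fresh water and at most 0.5 RPKM in both brackish water libraries, were met by 50 transcripts of the assembly, of which 20 were among the 412.

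In brackish water 3 transcripts reached 5 RPKM in both libraries. The highest in fresh water, comp232723_c1_seq1 of 400 bases, had 15.0 and 28.1 RPKM in fresh water, 25.9 and 6.29 RPKM in brackish water libraries 1 and 2, and 0.152 and 0.302 RPKM in seawater. Brackish water library 1 lay between the fresh water libraries and library 2 lay below them. The second, comp236818_c0_seq1 of 542 bases, had 13.6 and 19.8 RPKM in fresh water, 16.3 and 5.90 RPKM in brackish water libraries 1 and 2, and 0.335 and 0.334 RPKM in seawater, in the same order. On the TMM scale brackish water library 2 was above both fresh water libraries in comp232723_c1_seq1 and comp236818_c0_seq1. With at least 5 RPKM in both brackish water libraries and at most 0.5 RPKM in both seawater libraries there were 13 transcripts in the assembly, and these 3 were the ones among them also at 5 RPKM or more in fresh water.

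A single transcript went the other way within brackish water. The transcript comp233711_c0_seq4, of 279 bases, had 14.1 and 21.0 RPKM in fresh water, 0 RPKM in brackish water library 1, 7.71 RPKM in library 2, and 0 RPKM in both seawater libraries. It had 76 reads in brackish water library 2 and 0 in library 1, where 11 of the 412 in all had library 2 above library 1. Against a floor of 3 reads over both seawater libraries it was at least 79.1-fold higher in fresh water. On the TMM scale the transcript had 19.7 in brackish water library 2, above 9.12 and 11.2 in the fresh water libraries. Summed, the other forms of its component had 2.14 and 1.51 RPKM in fresh water, and 8.68 and 0.0705 RPKM in seawater. The component as a whole was thus not near silent in seawater library 1.

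**Figure D3:**
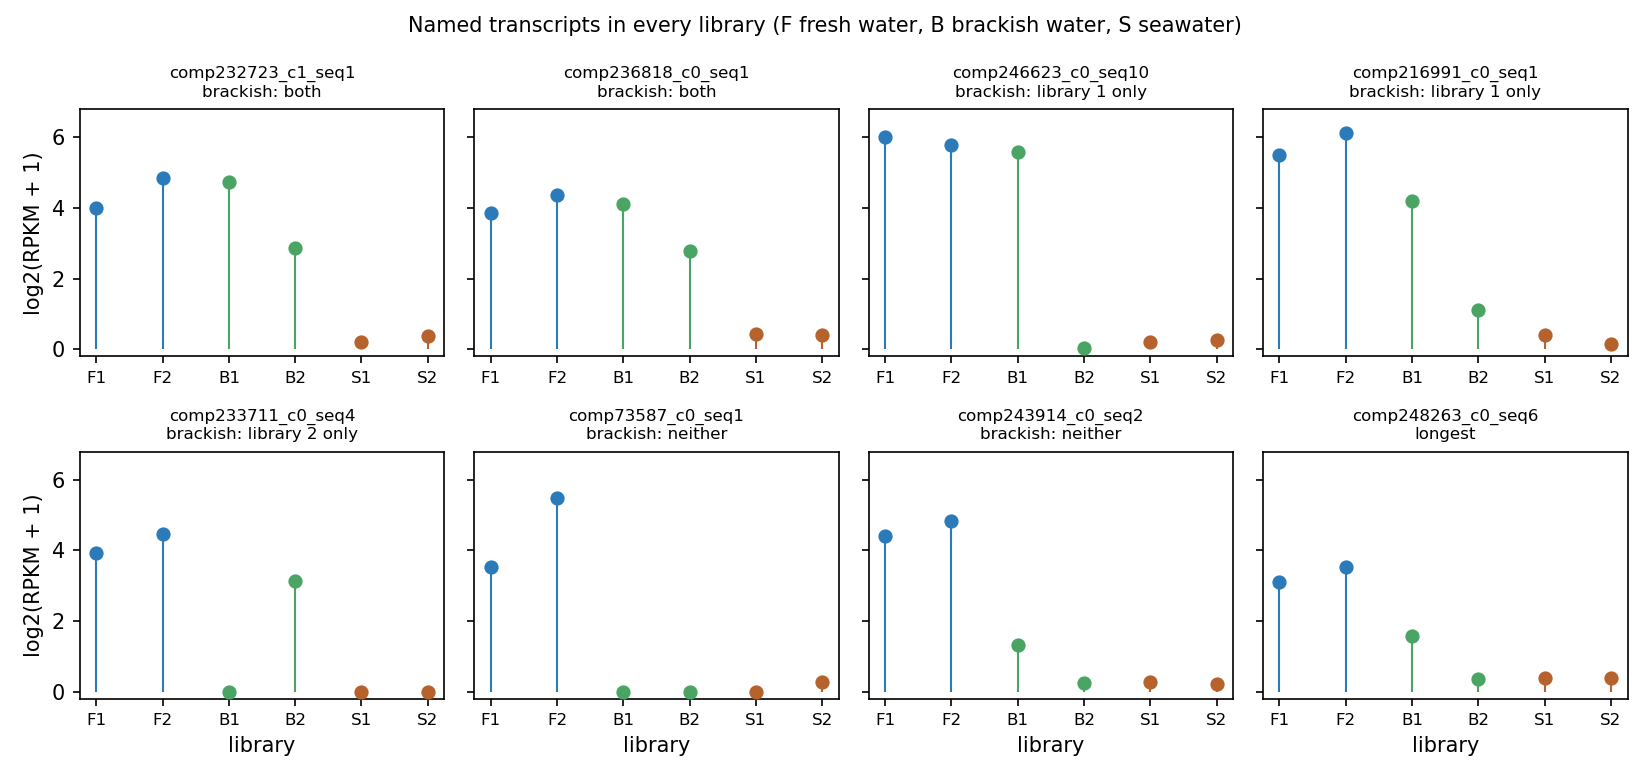
Level of 8 named transcripts, as log2(RPKM + 1), in each of the 6 libraries (F1 and F2 fresh water, B1 and B2 brackish water, S1 and S2 seawater). Titles give the ID and the brackish water library in which the transcript reached 5 RPKM, except that comp248263_c0_seq6 is titled as the longest. Each panel shows both fresh water libraries above both seawater libraries, while the brackish water libraries range from 46.8 and 0.0271 RPKM in comp246623_c0_seq10 to 0 and 7.71 RPKM in comp233711_c0_seq4.

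The test across all transcripts gives a background for these levels. By limma on log2(RPKM + 1), with p-values adjusted after Benjamini and Hochberg over the 25901 transcripts that averaged 1 RPKM or more, 322 of the 412 passed an adjusted p of 0.05 as higher in fresh water than in seawater, and 3.05% of the 25901 did. All 412 entered the test, which their choice ensures. The contrast is the one that chose them, so nothing is read from this count. Their log2 fold changes of fresh water over seawater ran from 2.22 to 5.67 with a median of 3.03, against a median of 0.89 over all 25901. With TMM factors these medians were 2.33 and 0.08. The number that passed hung on single libraries. Without fresh water library 1 it was 33, where 0.205% of the 25901 passed as higher, and without library 2 it was 0 (355 of the 412 had a limma p under 0.05 before adjustment), where 0.0270% passed. Without seawater library 1 it was 28, where 0.819% passed, and without library 2 it was 43, where 0.780% passed. Without brackish water library 1 or 2 it was 412, where 37.4% and 36.6% passed. With TMM factors it was 0 by limma (403 before adjustment) and 0 by edgeR (397). By DESeq2, which used its own scaling and not TMM, it was 394, where 15.5% passed.

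In brackish water against seawater 0 of the 412 passed by limma (208 had a p under 0.05 before adjustment), and 0.0695% of the 25901 passed as higher. By edgeR 0 passed (329 before adjustment), and by DESeq2 297, where 11.5% passed. The median log2 fold change of the 412 was 1.70, against 0.12 over all 25901. Leaving out brackish water library 2 gave 350 that passed as higher and a median of 2.89, where 20.8% of the 25901 passed. Leaving out brackish water library 1 gave 0 (90 before adjustment) and a median of 0.52. The seawater levels of this contrast were fixed by the choice of the transcripts.

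In fresh water against brackish water 23 of the 412 passed by limma, all higher in fresh water, where 0.158% of the 25901 passed as higher. The median log2 fold change of the 412 was 1.32, against 0.70 over all 25901, and it was positive in 411. With TMM factors it was 0.59, against 0.0012, and it was positive in 345. Without brackish water library 2 the median was 0.17, with 250 of 412 positive, and without library 1 it was 2.52. With TMM factors 0 passed by limma (97 before adjustment) and 0 by edgeR (63). By DESeq2, with its own scaling, 33 passed, where 0.386% of the 25901 passed. The fresh water levels of this contrast were fixed by the choice of the transcripts, so nothing is read from the count or its direction. Without brackish water library 1 there were 397, where 52.2% of the 25901 passed, and without brackish water library 2 there were 0 by limma (97 before adjustment). Without fresh water library 1 there were 3, where 0.0309% passed, and without library 2 there were 0 (74 before adjustment). Among the named transcripts comp73587_c0_seq1, with a log2 fold change of 4.50 and a standard error of 0.75, and comp243914_c0_seq2, with 3.84 and a standard error of 0.77, were among the 23. These 3 comparisons share their libraries in pairs and are not independent of each other.

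For fresh water over seawater, the authors' deposited table listed 169 of the 412, marking all 169 as significant and higher in fresh water. It listed 55575 transcripts, against 221076 in the one for brackish water. Among the 412, being listed for fresh water and being marked were the same, and the others carried no mark. The contrast is the one that chose the transcripts, so nothing is read from this count. As a background, 15.6% of the assembly carried that mark as higher in the authors' deposited table. The log2 fold changes of the 169 in the authors' deposited table ran from 3.77 to 11.1, with a median of 5.86, and a seawater mean of 0 stands there as 0.01. For brackish water over seawater, the authors' deposited table listed 409 of the 412 and marked 1, as higher, where 0.750% of the assembly was marked as higher.

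The 412 transcripts were short beside other transcripts that were on in fresh water. Length was not used by the rule, except that it enters every RPKM. Their median length was 743.5 bases, with quartiles of 464 and 1297 bases, against a median of 1582 bases in the 9445 other transcripts at 5 RPKM or more in both fresh water libraries. Under 500 bases long were 116 of the 412, or 28.2%, against 12.0% of the 9445, and over 2000 bases were 9.22% against 39.2%. Among the 8112 of them whose mean fresh water level was no higher than the highest of the 412, the median was 1660 bases and 11.1% were under 500 bases, so the gap was as wide there. In short transcripts fewer reads stand behind a limit of 0.5 RPKM. The 412 were still longer than the assembly as a whole, whose median was 259 bases.

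In brackish water library 1 the 412 and these 9445 others differed less than in library 2. At least 5 RPKM was reached in library 1 by 71.8% of the 412 and 88.3% of the 9445, and in library 2 by 0.971% and 40.04%. At most 0.5 RPKM was found in library 2 in 41.3% of the 412 and 3.90% of the 9445. The 9445 were not silent in seawater, with a median of 7.18 RPKM, so this comparison also sets transcripts that are low in seawater against transcripts that are not.

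The 412 transcripts belonged to 401 assembly components, so nearly all came from different components. In 304 of them the component held no other form. The remaining 108 transcripts, 26.2% of the 412, came from components with several forms, against 48.3% of the 9445 others and 9.63% of the whole assembly. Summed over all forms, 337 of the 401 components met the same limits as the single transcripts did. The 304 with no other form are counted in the 337, and they meet the limits by construction.

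In 7 components with several forms every form was among the 412. The one with most was comp247560_c0, with 4 forms of 1280 to 1698 bases. The form comp247560_c0_seq3 had 39.6 and 55.4 RPKM in fresh water, 49.9 and 0.138 RPKM in brackish water libraries 1 and 2, and 0.443 and 0.386 RPKM in seawater. The form comp247560_c0_seq1 had 33.5 and 39.0 RPKM in fresh water, 54.1 and 0.0833 RPKM in brackish water libraries 1 and 2, and 0.4997 and 0.213 RPKM in seawater. In both forms brackish water library 1 was as high as fresh water and library 2 was lower than seawater.

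The other 2 forms of that component were lower in brackish water library 1. The form comp247560_c0_seq2 had 25.1 and 33.8 RPKM in fresh water, 12.4 and 0 RPKM in brackish water libraries 1 and 2, and 0.0383 and 0.267 RPKM in seawater. The form comp247560_c0_seq10 had 15.1 and 15.6 RPKM in fresh water, 12.0 and 0.0663 RPKM in brackish water libraries 1 and 2, and 0.0947 and 0.0943 RPKM in seawater. In all 4 forms brackish water library 2 was below both seawater libraries on RPKM, and on the TMM scale in all but comp247560_c0_seq10. The forms may share sequence, so they are not 4 independent observations.

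In 90 components the 412 had sister forms that were not among them. In 33 of the 90 the sister forms, summed, were also at most 0.5 RPKM in both seawater libraries. In 15 they were at 5 RPKM or more in both seawater libraries, so that in these components 1 form was near silent in seawater while others were not. In the remaining 42 they lay between. The summed sister forms were higher in both fresh water than in both seawater libraries in 74 of the 90 and lower in 2, and with TMM factors in 63 and 7. Over 6199 components with several forms, none of them among the 412, and an average of 1 RPKM or more, 65.1% were higher and 12.0% lower, and with TMM factors 34.3% and 35.5%.

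**Figure D4:**
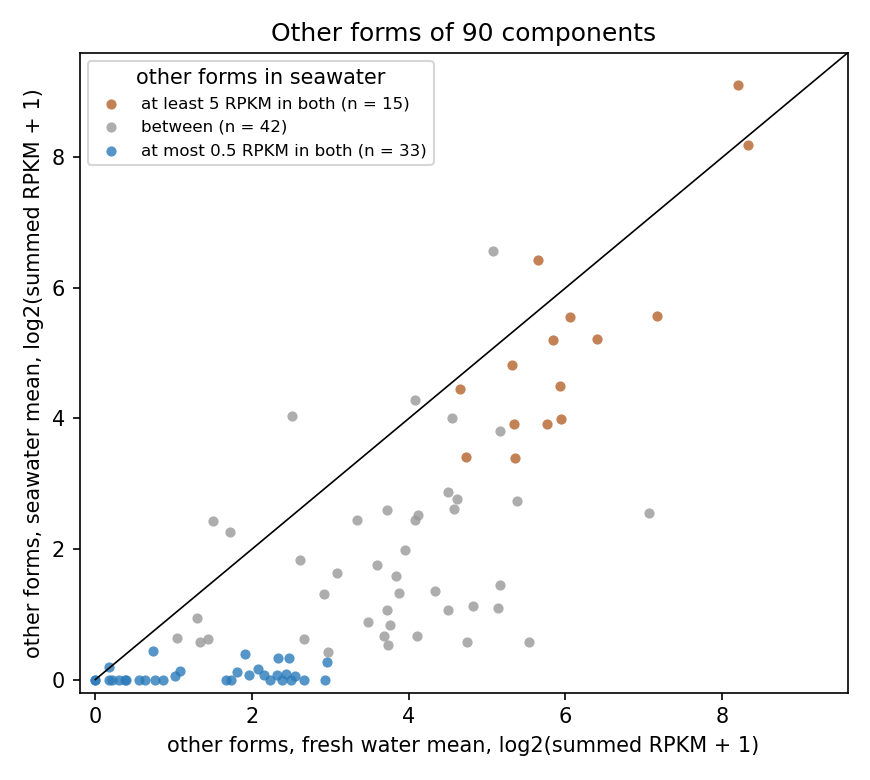
Summed level of the sister forms in the 90 components that hold some of the 412 transcripts and other forms, as log2(summed RPKM + 1), averaged over the fresh water libraries (horizontal) and the seawater libraries (vertical). Each point is 1 component, coloured by the level of the sister forms in seawater, and the line marks equal levels. In 15 components the sister forms had at least 5 RPKM in both seawater libraries, in 33 at most 0.5 RPKM, and in 42 they lay between.

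Among the 15 components whose sister forms were on in seawater, the median summed level of those forms was 56.1 RPKM in fresh water against 27.2 RPKM in seawater. They were higher in both fresh water libraries in 11, lower in both in 1 and overlapped in 3, and with TMM factors they were higher in 7 and lower in 5. The pair with the highest sister forms in seawater are described here, chosen after their values were seen. In comp240033_c0 the form near silent in seawater, comp240033_c0_seq2 of 623 bases, had 8.46 and 14.1 RPKM in fresh water, 10.7 and 0.908 RPKM in brackish water libraries 1 and 2, and 0.486 and 0.291 RPKM in seawater. Its sister form comp240033_c0_seq1 of 671 bases had 192 and 132 RPKM in fresh water, 146 and 127 RPKM in brackish water libraries 1 and 2, and 262 and 375 RPKM in seawater. The sister form was thus lower in both fresh water libraries than in either seawater library, the reverse of the order of comp240033_c0_seq2. The 4 sister forms together had 346 and 243 RPKM in fresh water, against 482 and 620 RPKM in seawater.

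In comp243931_c0 the form near silent in seawater, comp243931_c0_seq7 of 1562 bases, had 6.26 and 8.97 RPKM in fresh water, 6.83 and 0.453 RPKM in brackish water libraries 1 and 2, and 0.0388 and 0.135 RPKM in seawater. This form had 2 sister forms. The form comp243931_c0_seq8 of 3242 bases had 200 and 208 RPKM in fresh water and 508 and 35.6 RPKM in seawater. In brackish water libraries 1 and 2 it had 187 and 60.8 RPKM. Its seawater libraries lay on either side of its fresh water libraries, so the groups overlapped. The form comp243931_c0_seq6 of 3708 bases had 99.7 and 136 RPKM in fresh water and 36.8 and 3.58 RPKM in seawater. That form was thus higher in both fresh water libraries, in the order of comp243931_c0_seq7. Summed, the sister forms had 300 and 344 RPKM in fresh water and 545 and 39.2 RPKM in seawater, so the groups overlapped. How the assembly shares reads between forms was not tested, so in these components a form's level and its share of the component's reads cannot be told apart.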

How the data were processed

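Messenger RNA of juvenile shrimp gill was sequenced, and 2 libraries each from fresh water, brackish water and seawater were used. Groups follow the submitters' treatment labels. The labels do not tie libraries to animals or cultures, and the spread behind each p-value may be that of repeat libraries. Per the file headers, the deposited values are RPKM for every library and assembled transcript. The deposited tables against seawater add each group's mean estimated count, a log2 fold change of mean RPKM and a p-value. The authors' assembly, mapping and counting tools are not given in these sources.

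Multiplied by length, RPKM fell on whole steps (tolerance 0.1 read), and the steps were read as counts. They equalled the deposited mean counts in 100% of the 412 transcripts that those tables list. Transcripts averaging 1 RPKM or more were tested together with limma 3.58.1 (trend, log2(RPKM + 1), group as the only term, 3 residual degrees of freedom), with p-values adjusted after Benjamini and Hochberg and a threshold of 0.05. Fold changes on this scale understate the change of low transcripts. The fit was also run on simulated data, in which all libraries had the same expected levels apart from the changes put in. The TMM factors of the real libraries ran from 0.391 to 1.87, a spread that the simulation lacked. That run therefore does not bear on how far the calls hold here. The plan had edgeR 4.0.16 for deposited counts, and it was run on the recovered reads as an alternative, as was DESeq2 1.42.0. TMM factors came from the recovered reads, and DESeq2 used its own scaling factors.

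The transcripts, lists and tests were chosen with earlier results of these data known. Named transcripts are, for each brackish water class, the 2 highest in fresh water, plus the longest and those of the component with most. Lists of ion transport, stress and cell type genes could not be applied, since the IDs carry no gene names. No sequence of these transcripts is printed. Intervals cover counting error only.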

Additional observations from a re-analysis of the deposited data

How the results depend on the processing

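The number of transcripts under the rule was 412. It was 105 with TMM factors, 43 with limits of 0.25 and 10 RPKM, and 2045 with limits of 1 and 3 RPKM. It was 363 components when levels were summed over components, and 407 with every library thinned to the shallowest, of which 349 were among the 412. At a limit of 10 RPKM in place of 5, 132 of the 412 passed in brackish water library 1 and 0 in library 2. At 3 RPKM 26 passed in library 2, and with TMM factors 49 did at 5.

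The number of calls moved with the setting. The direction of fresh water over seawater was fixed by the choice of the transcripts. The log2 fold change of fresh over brackish water was positive in 411 of the 412. It was positive in 345 with TMM factors and in 250 without brackish water library 2. For brackish water over seawater it was positive in 405, and in 312 without brackish water library 1. For fresh water against seawater, 322 calls became 188 with the replicate block, 324 with a pseudocount of 0.1 and 394 with DESeq2. In a fit of the compared groups they became 412. They became 0 with no filter, with a filter at 3 RPKM, with TMM factors or with edgeR. They also moved when 1 library was left out. For brackish water against seawater, 0 calls became 297 with DESeq2, and they ranged from 0 to 350 when 1 library was left out. For fresh against brackish water, 23 calls became 33 with DESeq2, 1 with a pseudocount of 0.1, 9 in a fit of the compared groups, and 0 with no filter, with a filter at 3 RPKM, with TMM factors or with edgeR, and they ranged from 0 to 397 when 1 library was left out. The cause was not tested.

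The labels do not say whether libraries of the same number belong together. Deviations of same-numbered libraries correlated at 0.28 for fresh water and seawater, at -0.49 for fresh and brackish water, and at -0.39 for brackish water and seawater. In fits of the compared groups alone, with crossed numbers as the replicate block, 1 transcript was called between brackish water and seawater and 4 between fresh and brackish water. In the same fits the replicate block as numbered gave 0 and 0, both settings chosen after seeing the data, and no block gave 0 and 9. In the fit of all 6 libraries the replicate block as numbered gave 0 and 18.

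For the 12 named transcripts the log2 fold change of fresh water over seawater was positive in all 168 values under these alternatives, 76 of which no longer passed. That sign is fixed by the choice of transcripts. For brackish water over seawater, 6 turned negative without brackish water library 1. They were comp246623_c0_seq10 at -0.19, comp248263_c0_seq6 at -0.011, comp247560_c0_seq1 at -0.32, comp247560_c0_seq2 at -0.20, comp247560_c0_seq3 at -0.31 and comp247560_c0_seq10 at -0.038. Without brackish water library 2 the same 6 stood at 5.35, 1.19, 5.35, 3.55, 5.17 and 3.58, the upper end over single libraries left out. In seawater 61 of the 412 had no read and 80 had 1 to 3 reads over both libraries, which limits how well their levels there can be told apart.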
